A study of Drosophila melanogaster with 2 samples.

Results

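The peaks described here are the Crol binding peaks that lie at the promoters of non-coding genes in Drosophila melanogaster embryos. From the conservative joint peak list of both replicates, a peak was taken when its summit lay within 500 bp of an annotated transcription start site (TSS) of a gene that encodes no protein and more than 500 bp from every protein-coding TSS, with transposable elements left out. The rule used position only, on arms 2L, 2R, 3L, 3R, 4 and X, and it found 285 peaks of 9211 (3.09%). Of the other peaks, 2246 lay within 500 bp of a protein-coding TSS and are called coding promoter peaks, and 6680 had no TSS of any gene within 500 bp. The chromatin came from whole embryos of the strain crol-GFP, 0 to 24 h old, which carry an insertion at crol and make Crooked legs (Crol), a zinc finger protein, as a fusion with eGFP. It was sonicated and precipitated with an antibody against GFP, whereas a further label field gives crol as the antibody. There were 2 libraries, labelled biological replicates 2 and 1, in 1 group, so no condition was compared. A whole embryo mixes all its cell types and all stages of the collection, and a peak does not say in which of them the protein was bound.

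Non-coding genes of the fly fall into families with different machinery. Long non-coding RNAs (lncRNAs), antisense RNAs, microRNA precursors and most spliceosomal RNAs are made by RNA polymerase II. Transfer RNAs, 7SK and RNase MRP RNA are made by RNA polymerase III, and the promoters of transfer RNA genes partly lie inside the transcribed gene. MicroRNAs are cut from longer primary transcripts. The entries of microRNA genes give the ends of the hairpin and of the mature products rather than the start of that transcript. For these genes the start site used here is therefore the 5′ end of an annotated RNA. Some hairpins also lie inside a separately annotated lncRNA gene. Crol is a C2H2 zinc finger protein whose gene responds to the steroid hormone ecdysone and which is known for its part in leg and wing development at metamorphosis and in cell proliferation.

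The sequences under the summits of 8 of the strongest peaks follow, since G runs were the commonest of the short sequences searched at these peaks. Each is read from dm6 with 50 bases on both sides of the summit, 5′ to 3′ along the strand of the non-coding gene. Capitals mark matches on either strand to any of 8 short sequences. These are a G run (GGGGG), the core of the GAGA factor site (GAGAG), the DNA replication-related element (TATCGATA), and a motif bound by the early activator Zelda (CAGGTA). The others are the core of the site bound by the Polycomb recruiter Pleiohomeotic (GCCAT), the TATA box of many promoters (TATAAA), the B box inside tRNA genes (GTTCGANTC) and the E box bound by helix-loop-helix proteins (CACGTG). None of the 8 is a match within another, and where matches touch or overlap their capitals run together.
lncRNA:CR43644, chr3R:26020937-26021037, minus strand: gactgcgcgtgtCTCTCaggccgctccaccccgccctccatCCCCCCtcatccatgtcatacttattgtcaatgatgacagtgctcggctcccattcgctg
lncRNA:CR45352, chr2L:14021876-14021976, minus strand: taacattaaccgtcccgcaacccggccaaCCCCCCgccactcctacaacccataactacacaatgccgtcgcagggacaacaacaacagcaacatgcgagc
lncRNA:CR45640, chr3R:16208444-16208544, plus strand: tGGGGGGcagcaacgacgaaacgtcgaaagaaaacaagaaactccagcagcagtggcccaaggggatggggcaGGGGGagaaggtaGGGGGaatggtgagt
lncRNA:CR45541, chrX:9584595-9584695, plus strand: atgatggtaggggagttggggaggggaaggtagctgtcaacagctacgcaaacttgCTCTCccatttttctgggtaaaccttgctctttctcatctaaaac
lncRNA:CR46036, chr3R:17700969-17701069, plus strand: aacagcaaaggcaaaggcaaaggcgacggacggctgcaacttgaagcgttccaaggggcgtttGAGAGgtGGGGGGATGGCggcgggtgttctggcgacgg
lncRNA:CR31840, chr2L:14024168-14024268, minus strand: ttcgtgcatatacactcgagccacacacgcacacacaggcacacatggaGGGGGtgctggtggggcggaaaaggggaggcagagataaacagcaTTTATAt
lncRNA:CR43334, chr3L:628126-628226, plus strand: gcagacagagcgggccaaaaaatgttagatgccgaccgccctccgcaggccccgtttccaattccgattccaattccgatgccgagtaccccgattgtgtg
lncRNA:CR46000, chr3L:6981238-6981338, minus strand: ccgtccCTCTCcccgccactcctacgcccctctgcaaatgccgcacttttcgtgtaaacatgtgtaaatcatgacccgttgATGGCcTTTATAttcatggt

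Summit sequences at 5 small RNA genes are shown in the same form as examples that hold runs of G or C. They were picked after their sequences were seen, and the peaks of mir-314 and tRNA:Trp-CCA-2-4, stronger than the last 3 of them, held no GGGGG within 50 bp. The mir-34 peak had such runs on the C-rich strand, the 7SK peak had separate C runs, and the peak near the snRNA:LU gene had an uninterrupted C run.
mir-34, chr3R:10100696-10100796, plus strand: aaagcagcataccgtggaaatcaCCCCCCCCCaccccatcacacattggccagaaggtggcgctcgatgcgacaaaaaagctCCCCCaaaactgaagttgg
snRNA:7SKa, chr3R:7474715-7474815, minus strand: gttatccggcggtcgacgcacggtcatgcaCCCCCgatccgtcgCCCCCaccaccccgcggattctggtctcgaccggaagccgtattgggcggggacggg
tRNA:Tyr-GTA-1-4, chr3R:8642401-8642501, minus strand: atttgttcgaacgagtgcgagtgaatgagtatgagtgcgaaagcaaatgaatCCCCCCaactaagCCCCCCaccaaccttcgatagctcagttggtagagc
tRNA:Leu-CAA-2-3, chr3R:23601651-23601751, minus strand: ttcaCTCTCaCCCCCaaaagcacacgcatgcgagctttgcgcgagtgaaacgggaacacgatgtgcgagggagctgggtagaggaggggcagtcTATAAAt
snRNA:LU, chr2L:3046501-3046601, plus strand: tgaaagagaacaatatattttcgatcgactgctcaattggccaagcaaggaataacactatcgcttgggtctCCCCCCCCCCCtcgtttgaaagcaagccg

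Mature microRNA products of hairpins next to strong peaks are given with the seed (bases 2 to 8) in capitals, from their RefSeq positions on dm6. A product of mir-277, of the mir-34 cluster, is also given, although its peak had a signal of only 85.4. The suffix RA or RB is the RefSeq name of the product. Across all 23 mature sequences of the 12 hairpins whose products were read, the 23 seeds were all different, so no seed family was repeated among them.
mir-34-RA, chr3R:10100952-10100975, plus strand: tGGCAGTGtggttagctggttgtg
mir-277-RA, chr3R:10100080-10100102, plus strand: tAAATGCActatctggtacgaca
mir-314-RA, chr3L:11773081-11773101, plus strand: tATTCGAGccaataagttcgg
mir-9370-RA, chrX:11710280-11710301, minus strand: tTTGGGTTgccggtaccgggtg
mir-9377-RB, chrX:12665247-12665267, plus strand: cTTGATGGggagaaggagagg

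Most of these peaks belonged to lncRNA genes. Assigned to the gene with the nearest TSS, 218 peaks lay at lncRNA genes, 19 at antisense RNA genes, 16 at microRNA genes, 20 at tRNA genes, 3 at snRNA genes, 2 at snoRNA genes, 2 at pseudogenes and 5 at other non-coding genes. They covered 252 genes, of which 29 had 2 peaks and 2 had 3 peaks. By arm, 68 lay on 2L, 55 on 2R, 53 on 3L, 65 on 3R, 44 on X and 0 on chromosome 4, where the list held 8 other peaks.

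The signal of these peaks, the height the authors deposited for each peak, was near that of the rest of the list. Its median was 117.7 at non-coding promoters (quartiles 82.3 and 205), against 132 at coding promoters (82.6 and 231) and 109 at peaks away from any TSS (77.7 and 179). The non-coding median was 0.893 times that of coding promoters and 1.08 times that of peaks away from any TSS. In the separate values of replicate 1 and replicate 2 the ratio over coding promoters was 0.917 and 0.883, and over peaks away from any TSS it was 1.099 and 1.07. Peaks are not replicates of a condition, so differences between kinds of peak were not tested, and the values of both replicates show their spread. A signal of 500 was reached by 26 of 285 (9.12%), against 7.52% of coding promoter peaks and 5.22% of all other peaks, and 6 exceeded 1000. At lower limits the order against coding promoters was the other way, with 16.1% against 17.8% at a signal of 300 and 26.3% against 30.2% at 200, while all other peaks had 12.7% and 23.4%.

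**Figure D1:**
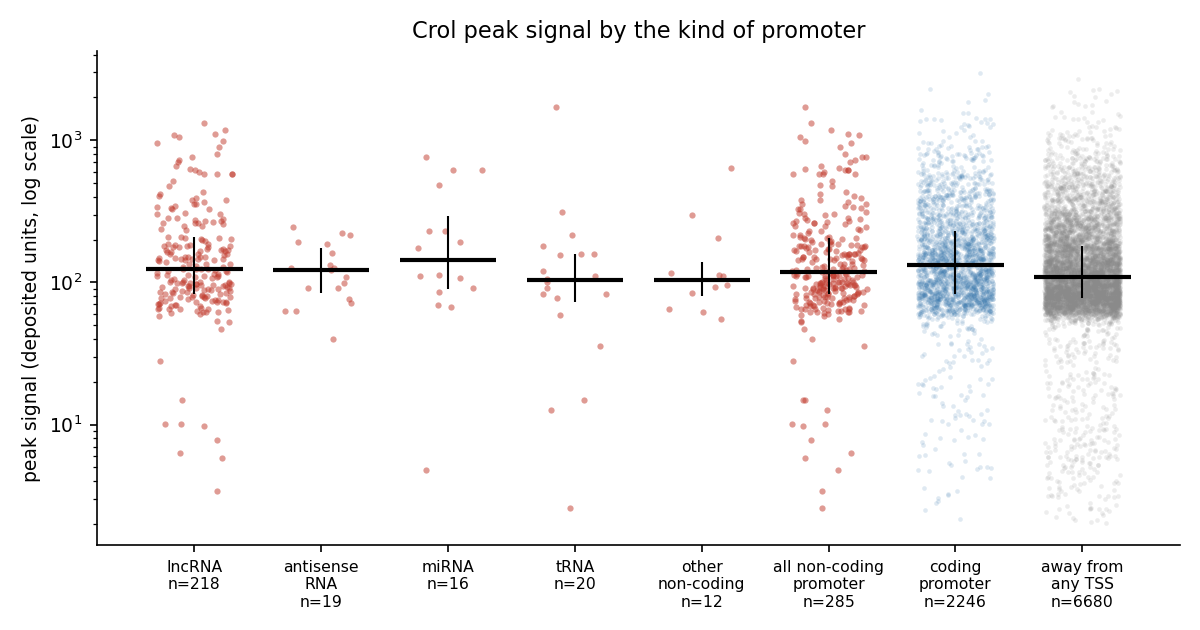
Deposited peak signal on a log scale for the classes of non-coding promoter peak, for all 285 of them, for coding promoter peaks and for peaks away from any TSS; each point is a peak, the thick bar is the median and the thin line spans the quartiles. The medians of the lncRNA, antisense RNA, miRNA and tRNA classes lie between 104 and 143, and the tRNA class holds the highest non-coding point at 1707.

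Among the classes with more than 5 peaks, the microRNA class had the highest median signal at 143 (quartiles 90.3 and 294, n = 16) and the tRNA class the lowest at 104 (72.8 and 158, n = 20). The lncRNA median was 124 (82.3 and 208, n = 218) and the antisense RNA median 123 (83.8 and 174, n = 19). The quartiles of all 4 classes overlapped. Antisense RNA peaks reached no higher than 245, while the highest peaks of the microRNA, lncRNA and tRNA classes had 755, 1320.0 and 1707.

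The strongest lncRNA peak lay at lncRNA:CR43644, in the Enhancer of split complex next to E(spl)m3-HLH, which encodes a repressor of the Notch pathway. Its signal was 1320.0 in the joint list, with 764 in replicate 1 and 557 in replicate 2, and its summit lay 89 bp downstream of the lncRNA start and 836 bp from the nearest coding TSS. Its sequence above holds a C run and a GAGAG match on the opposite strand. Next came lncRNA:CR45352 with 1176 (652 in replicate 1, 520.3 in replicate 2) and, beside it on the same strand of 2L, lncRNA:CR31840 with 952 (522 and 417). The coding TSSs nearest to these 2 peaks were those of NimC3, of a family of phagocytic receptors, and of hll.

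The following 3 lncRNA peaks had signals just above 1000. lncRNA:CR44621 on X had 1106 (546 in replicate 1 and 568 in replicate 2), and replicate 2 was the higher one there. lncRNA:CR45640 on 3R had 1081 (579 and 491), 3244 bp from the TSS of mtSSB, which encodes the single-stranded DNA-binding protein of mitochondria, and the neighbouring lncRNA:CR45642 had 430.5 (265 and 173) as well as a weaker peak. lncRNA:CR45541 on X had 1048 (634 and 421) and a further peak of 233, and the stronger summit lay 1030 bp from the TSS of the hexokinase gene Hex-A.

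Several strong peaks lay inside coding genes of different kinds. lncRNA:CR46036 had 983 (538 in replicate 1, 426 in replicate 2) in an intron of osa, a subunit of the Brahma chromatin remodelling complex, on the strand opposite to it. lncRNA:CR42746 had 702 (410.0 and 296) in an intron of bun, and lncRNA:CR44409 had 625 (384 and 242) in an intron of Dif, an NF-kappaB family factor of the immune response, both on the opposite strand. lncRNA:CR46090 had peaks of 415 (213 and 202) and 124 (67.7 and 82.3) in an intron of pnt, an ETS factor of receptor tyrosine kinase signalling, here on the same strand. lncRNA:CR45018 had 758 (441 and 317) in an intron of IP3K2 on the same strand, and lncRNA:CR44868 had 476 (294 and 194) in an intron of beat-Ib on the opposite strand. Peaks of like strength at mir-9370 in Amun, mir-9377 in Tis11 and lncRNA:CR45531 in CG14434 are given with their classes.

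Outside coding genes, lncRNA:CR46000 near the G protein subunit gene Galphai had 798 (418 in replicate 1, 369 in replicate 2) and lncRNA:CR44366 had 728 (435 and 290). lncRNA:CR43724, with its summit 1766 bp from the TSS of the eye homeobox gene Optix, had 576 (323 and 250). lncRNA:CR45936 (657), lncRNA:CR45650 (594), lncRNA:CR45531 (580, in an intron of CG14434), lncRNA:CR44714 (579, with the TSS of scyl nearest) and lncRNA:CR45582 (577) completed the lncRNA peaks of this strength away from the bantam locus. Replicate 1 gave the higher value in most of the peaks, since replicate 2 was the higher in 61 of 279 non-coding promoter peaks with both values (21.9%, 95% interval 17.2 to 27.2) and in 26.0% of the other peaks.

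The bantam locus held 4 of the peaks. bantam is a microRNA that promotes growth and blocks cell death, and its hairpin lies inside lncRNA:CR43334. It lies 13773 bp downstream of the most upstream annotated start of that gene, which is called the start here. The gene has a further annotated start nearer the hairpin, 883 bp from a summit that lay 12162 bp downstream of the most upstream one. The peak at the most upstream start had a signal of 899 (515 in replicate 1, 373 in replicate 2), with its summit 259 bp upstream. Within 15 kb of the start there were 22 peaks, and the one at the start was the highest of them. lncRNA:CR43337 had 616 (345 and 273) and lncRNA:CR42719 had 519 (319 and 179), both upstream of lncRNA:CR43334 on the other strand, and lncRNA:CR43423 had 180.3 (128 and 44.8) inside it. The remaining 18 peaks had no TSS within 500 bp and ran from 62.4 to 502. The summit nearest the hairpin, with a signal of 179.96, lay 612 bp from it.

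**Figure D2:**
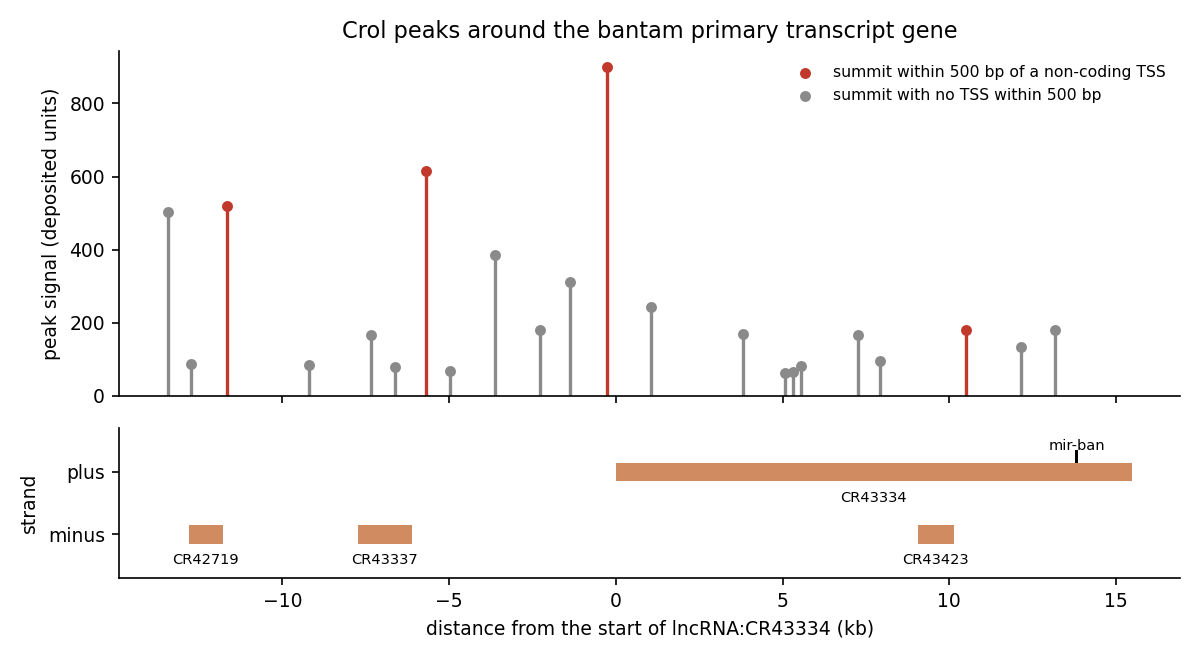
Deposited signal of the 22 conservative peaks within 15 kb of the most upstream start of lncRNA:CR43334, by distance of the summit from that start in kb. The lower panel shows the annotated non-coding genes and the bantam hairpin (mir-ban) by strand. The highest peak, with 899, stands 259 bp upstream of the start, and other peaks lie on both sides of it.

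Among lncRNAs with known functions, 5 of the 14 listed ones that were found in the annotation had a peak, against 11.1% of all lncRNA genes with a usable start (188 of 1694). The list is small and was not tested. Like the lists of small RNA genes below, it was chosen with earlier results of these data known, so these shares do not measure an enrichment. Besides the bantam transcript these were acal, iab8, noe and let7C. acal, which restrains JNK signalling in dorsal closure, had 368 (204 in replicate 1, 158 in replicate 2), 143 bp downstream of its start, and lola was the nearest coding gene. iab8, a transcript of the bithorax complex that represses abd-A in the nervous system, had 184 (121 and 65.2), 99 bp upstream of one of its starts. noe had 82.5 (41.4 and 39.5), and let7C, the ecdysone-induced precursor of let-7, miR-100 and miR-125, had 61.4 (39.9 and 27.7) at 468 bp from its start, near the outer limit of the rule.

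The other 9 listed lncRNAs had no peak within 500 bp. The roX RNAs of dosage compensation lay 5939 bp (roX1) and 21143 bp (roX2) from the nearest summit, the heat-shock lncRNA Hsromega 34763 bp and the piRNA cluster flam 37388 bp. bxd of the bithorax complex was closest, with a summit 635 bp from its start. CRG, dntRL, sphinx and yar lay 7637 bp or more from a summit.

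By nearest start, 16 peaks were assigned to microRNA genes, within 500 bp of the 5′ end of the hairpin or a mature product. The mir-275 peak also had mir-305 within that distance. mir-34, which acts in ageing and neuronal maintenance, had 755 (364 in replicate 1, 387 in replicate 2) with the summit 190 bp upstream of the hairpin, and mir-277 of the same cluster had 85.4 (50.2 and 33.5). Then came mir-9370 with 616 (339 and 269.7), mir-9377 with 615, mir-314 with 484 (284 and 209), mir-4978 in mam with 231, mir-9378 with 230.3, mir-14, a suppressor of cell death, with 193 and mir-4946 in tup with 174. The mature product of mir-34 given above has the seed GGCAGTG and that of mir-277 has AAATGCA, so these clustered microRNAs differ in their seeds. The mir-34 and mir-277 summits lay inside lncRNA:CR43459 (chr3R:10093761-10101356), on the same strand as both hairpins and away from its annotated start. For 6 of the 16 peaks the nearest annotated 5′ end was that of a mature product inside the hairpin.

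Transfer RNA genes had the highest of the 285 peaks, at tRNA:Ser-TGA-2-1 (1707, with 1014 in replicate 1 and 704 in replicate 2 and the summit 71 bp upstream of the gene), where no other summit lay within 5 kb. The next were 315 at tRNA:Trp-CCA-2-4 and 217 at tRNA:Trp-CCA-2-3, and the remaining 17 ran from 2.58 to 179. Of the 8 strongest, the others were tRNA:Tyr-GTA-1-4 (179), tRNA:Leu-CAA-2-3 (158.3), tRNA:Asp-GTC-1-6 (158.1), tRNA:Arg-ACG-1-1 (156) and tRNA:Trp-CCA-2-5 (121). The peak of tRNA:Arg-ACG-1-1 lay in an intron of EcR, the ecdysone receptor gene. A further peak there, at lncRNA:CR43904 with 77.8 (48.3 in replicate 1, 31.3 in replicate 2), is named after its values were seen, and both non-coding genes run opposite to EcR.

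In 4 tRNA peaks no peak of the replicate 2 ranked list overlapped, and in 1 none of replicate 1 did. Over all 285 peaks, 5 lacked a replicate 2 value and 1 lacked a replicate 1 value, so tRNA genes made up 5 of these 6. Genes for tRNA, snRNA and rRNA occur in near-identical copies, and whether reads could be placed in them was not tested.

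Among small RNAs made by RNA polymerase III, 2 of 9 listed genes with a usable start had a peak, against 7.84% of all such non-coding genes (280 of 3573). snRNA:7SKa, which encodes the 7SK RNA that holds the elongation factor P-TEFb inactive, had 641 (335 in replicate 1, 306 in replicate 2), while its copy snRNA:7SKb lay 28153 bp from the nearest summit. RNaseMRP:RNA, the RNA of a ribosomal RNA processing enzyme, had 84.6 (51.3 and 36.9). Neither 7SL gene of the signal recognition particle, RNase P RNA nor the 3 U6 genes had one.

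Of 26 genes whose symbol starts with snRNA:U, which are spliceosomal snRNA genes apart from snRNA:U7 of histone mRNA processing, 1 had a peak, against 7.84% of all non-coding genes. This was snRNA:U12 of the minor spliceosome, with 92.4 (58.7 in replicate 1 and 41.3 in replicate 2). The third snRNA peak was at snRNA:LU with 113 (58.1 and 51.8). The U6 genes belong to both lists.

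Of 4 snoRNA host genes with a usable start, 1 had a peak, against 7.84% of all such non-coding genes (280 of 3573). This was Uhg4, with 116.0 (54.3 in replicate 1, 74.3 in replicate 2) 22 bp upstream of its start. Uhg2, Uhg5 and Uhg8 start within 500 bp of a coding TSS and were not counted. The snoRNA peaks were at snoRNA:Psi18S-176 (95.3) and snoRNA:Or-aca3 (55.3). The remaining peaks lay at sncRNA:204 (299), sisRNA:4 in dpn (111), snoRNA:Or-ACA9 (64.8, typed as ncRNA in the annotation) and the pseudogenes CR43972 (204) and CR46526 (62.04).

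Antisense RNA peaks were led by asRNA:CR45281 (245, with 135 in replicate 1 and 109 in replicate 2), asRNA:CR44911 in bur (223), asRNA:CR45134 in whd (214) and asRNA:CR43629 in CG31522 (193 and 162 at different starts). asRNA:CR44512 in Zw, the glucose-6-phosphate dehydrogenase gene, had 187, asRNA:CR44224 in Myo31DF, a myosin of left-right asymmetry, had 133, and asRNA:CR46145 in FER had 127. Replicates differed most among these at the weaker peak of asRNA:CR43629, with 118 in replicate 1 and 47.9 in replicate 2. A binding peak has a position but no strand, so it cannot be given to one of the overlapping genes.

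Counted by gene, 280 of 3573 non-coding genes with a start more than 500 bp from coding TSSs had a peak (7.84%, 95% interval 6.98 to 8.77), against 15.5% of the 13945 protein-coding genes. The counting rules differed. A non-coding gene counted only for a peak more than 500 bp from every coding TSS, and a coding gene for any conservative peak within 500 bp of a start. The lncRNA share was 11.1% (188 of 1694), the tRNA share 8.14% (21 of 258), the microRNA hairpin share 6.93% (16 of 231), the antisense share 3.96% (13 of 328), the snoRNA share 2.08% (5 of 240) and the pseudogene share 0.446% (1 of 224). rRNA genes had a peak at 0 of 99, with an exact 95% interval up to 3.66% (3.03% by the rule of 3 counts) that covers counting error only and not the placing of reads in their copies. A gene here counts when any of its starts has a peak, so a peak between starts can count for several genes.

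Among genes with 1 start site, lncRNA and antisense genes, pooled, had a share close to that of coding genes. Other non-coding classes were left out of this comparison. The pool joins classes that differed over genes with any number of starts, at 11.1% for lncRNA and 3.96% for antisense genes. Of lncRNA and antisense genes with 1 usable TSS, 9.34% (8.07 to 10.7; 180 of 1928) had a peak, against 9.58% (9.02 to 10.2; 982 of 10246) of protein-coding genes with 1 TSS. With 2 or more TSSs the shares were 22.3% (14.4 to 32.1; 21 of 94) and 31.7% (30.2 to 33.3; 1174 of 3699). Most lncRNA genes have 1 TSS in the annotation, and the number of TSSs above 1 was not matched further. The counting rules of non-coding and coding genes differ here too, as given above.

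**Figure D3:**
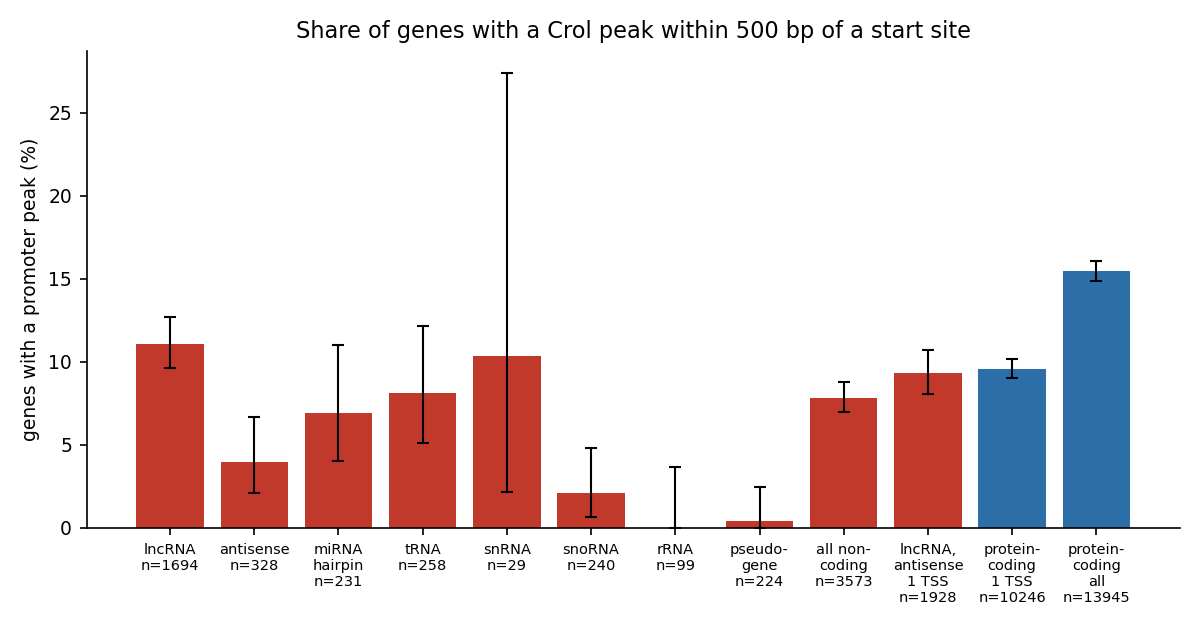
Share of genes, in percent, with a conservative Crol summit within 500 bp of a start site, by class, with exact 95% intervals, where n is the number of genes with a usable start. For non-coding genes only summits more than 500 bp from every coding TSS count, and for protein-coding genes any conservative summit counts. The share of lncRNA and antisense genes with 1 TSS (9.34%) stands beside that of protein-coding genes with 1 TSS (9.58%), and the share of all protein-coding genes is 15.5%.

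Summits at non-coding starts were spread more evenly over the window than those at coding starts. The median distance of the summit was 222 bp from the nearest non-coding TSS, against 163 bp from the nearest coding TSS for coding promoter peaks. Summits within 100 bp of the start made up 22.8% (18.1 to 28.1) of non-coding promoter peaks and 31.3% (29.4 to 33.3) of coding ones. For genes with 1 TSS the shares were 21.5% (16.6 to 27.0) and 31.2% (28.1 to 34.5). The outer zone, more than 400 bp from the start, held 19.3% (14.9 to 24.4) and 11.4% (10.07 to 12.7). Of the summits, 49.1% lay upstream at non-coding starts and 57.4% at coding ones.

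**Figure D4:**
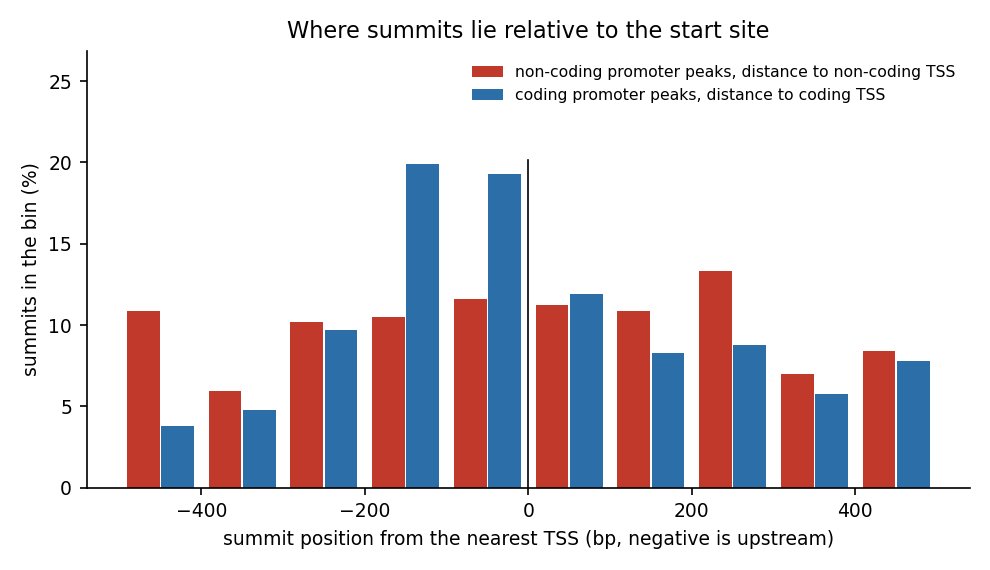
Share of summits, in percent, in bins of 100 bp by position relative to the nearest TSS along the gene's strand, for non-coding promoter peaks and for coding promoter peaks. The non-coding bins hold 5.96% to 13.3%, while the bins just upstream of coding starts hold 19.3% and 19.9%.

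Signal did not follow the distance to the start in one direction. Peaks with summits up to 100 bp from the TSS had a median signal of 108 (quartiles 78.8 and 208, n = 65), those more than 200 and up to 300 bp away 143 (96.4 and 259, n = 67) and those more than 400 bp away 110.1 (78.5 and 194, n = 55). The quartile ranges overlapped.

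At the limits of the rule, the 6 peaks just inside had signals of 90.7 to 193 and the 6 just outside 56.0 to 607. Inside, at 499 bp from the non-coding TSS, lay the peaks of lncRNA:CR45434 (129.7), lncRNA:CR43905 (90.7) and mir-11182 (110.1), and outside, at 501, 503 and 504 bp, those of mir-996 (77.9), lncRNA:CR43337 (78.4) and lncRNA:CR44619 (173). On the coding side, lncRNA:CR44977 at 511 bp from brat (109.7), lncRNA:CR45480 at 519 bp from CG2924 (169) and asRNA:CR43629 at 521 bp from CG31522 (193) were inside. asRNA:CR44866 at 496 bp from CycE (607), lncRNA:CR45455 at 475 bp from CG13082 (137) and snoRNA:Psi28S-3327a at 467 bp from RpS4 (56.0) were left out. These are values without a test.

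Of the 285 summits, 103 (36.1%, 30.6 to 42.01) lay inside a protein-coding gene, 93 of them in introns and 10 in exons, against 72.0% of peaks away from any TSS. Over all 3667 usable non-coding TSSs the share inside a coding gene was 41.6% (39.96 to 43.2), close to that of the peaks. Of the 103, the non-coding gene ran opposite to its host in 69, along it in 33 and both ways in 1 with overlapping hosts. The strands were not counted over the 1524 usable non-coding TSSs inside coding genes, so this split is not shown to be particular to the peaks. The hosts were 90 different genes, 16 of which held 2 peaks, among them osa, pnt, bun, EcR, kay and brat. The median distance to the nearest coding TSS was 3500 bp.

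Other peaks were often close by. Of the 285, 116 (40.7%, 34.9 to 46.7) had 3 or more other summits within 5 kb, against 20.7% of coding promoter peaks, 34.9% of peaks away from any TSS and 31.3% of all other peaks. lncRNA:CR43700 had 3 separate peaks, of 326 (178 in replicate 1, 143 in replicate 2), 264 (150 and 129) and 157 (89.2 and 33.6). lncRNA:CR45539 had peaks of 206, 143 and 64.6. Of genes with 2 peaks, the highest sums were those of lncRNA:CR45541, lncRNA:CR45531, lncRNA:CR46090, lncRNA:CR44339, lncRNA:CR44828, lncRNA:CR45642, lncRNA:CR45997 and asRNA:CR43629.

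Some of these pairs are not separate intervals. In 22 of the 285 (7.72%) the interval overlapped that of a stronger peak, against 7.29% of the other peaks. All 12 non-coding promoter peaks with a signal under 20 were of this kind. The weakest were at tRNA:Arg-TCT-3-1 (2.58), lncRNA:CR45354 (3.40), mir-996 (4.81), lncRNA:CR46243 (5.83) and lncRNA:CR43836 (6.36), and the replicate values matched to such a peak often belong to the stronger neighbour (144 in replicate 1 and 117 in replicate 2 beside the 3.40 of lncRNA:CR45354). The stronger peak next to mir-996 is the one at 501 bp that the rule left out.

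Most of the peaks were found in both replicates. Of the 285, 172 (60.4%, 54.4 to 66.07) overlapped a peak in the thresholded list of each replicate, against 57% of the other 8926 peaks. Replicate 1 alone had 55 of them (19.3%), replicate 2 alone had 24 (8.42%) and neither list had 34 (11.9%), which were kept by the joint list. In the other peaks these shares were 17.4%, 7.18% and 18.4%. Of the 72 strongest 71 were in both lists (98.6%), and of the 72 weakest 15 were (20.8%). In the 2232 strongest and 2232 weakest of the other peaks these shares were 99.6% and 13.2%. In the longer ranked lists, 257 of 279 with both values (92.1%) had signals within a factor of 2 of each other, against 94.97% of the other peaks. Across these peaks the replicate signals had a Spearman rho of 0.799 and a Pearson r of 0.898 on the log2 scale, against 0.803 and 0.883 in the other peaks. This describes peaks of 2 libraries, and the list was itself chosen for agreement of ranks.

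**Figure D5:**
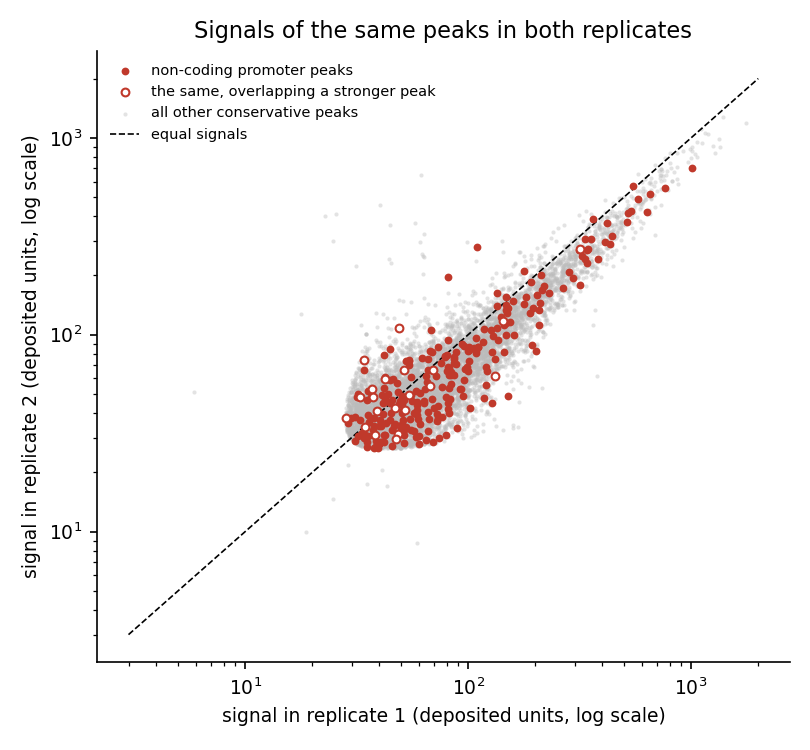
Signal of each peak in the ranked list of replicate 2 against that of replicate 1, both on log axes in the deposited units, for non-coding promoter peaks (filled), those overlapping a stronger peak (open) and all other conservative peaks (grey). Most non-coding promoter peaks fall below the line of equal signals, and 257 of 279 are within a factor of 2.

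The replicates differed most at a few named peaks. The median signal of replicate 2 over that of replicate 1 was 0.809 at non-coding promoter peaks and 0.827 at the other peaks. The ratios below were not corrected for this general difference between the lists. The signal of replicate 2 over that of replicate 1 was lowest at lncRNA:CR45388 (48.6 over 151, ratio 0.323), lncRNA:CR43423 (0.349), the weakest of the lncRNA:CR43700 peaks (0.376), lncRNA:CR43928 (0.389) and tRNA:Trp-CCA-2-5 (0.401). It was highest at mir-9377 (280.1 over 109.97, ratio 2.55), one of the lncRNA:CR44339 peaks (196 over 81.6, 2.41), asRNA:CR45281 (2.21) and lncRNA:CR44977 (2.17, for 2 peaks that share their replicate values). At mir-9377 the interval held 2 peaks in replicate 1, of which the stronger had 339, so its ratio rests on the choice of the nearest summit.

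The run GGGGG on either strand, within 50 bp of the summit, was found at 132 of the 285 peaks (46.3%, 40.4 to 52.3), against 53.3% of the other peaks. The share was 38.4% (36.4 to 40.4) at coding promoter peaks and 58.3% (57.1 to 59.5) at peaks away from any TSS, so the non-coding promoter peaks lay between these kinds. Windows of the same length, centred on the TSS rather than on a summit, held it in 5.56% at all usable non-coding TSSs and in 4.16% at all coding TSSs. It was found at 56.9% (44.7 to 68.6) of the 72 strongest peaks and at 27.8% (17.9 to 39.6) of the 72 weakest. In the 2232 strongest and 2232 weakest of the other peaks these shares were 66.8% and 39.96%. At tRNA genes 12 of 20 peaks held it, and summits in introns (51.6%, 41.01 to 62.1) and outside coding genes (44.0%, 36.6 to 51.5) had overlapping intervals.

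GAGAG was found at 77 of the peaks (27.0%, 21.9 to 32.6), against 25.9% of the other peaks, 30.1% of coding promoter peaks and 24.5% of peaks away from any TSS, and in 11.8% of windows at all usable non-coding TSSs. Both GGGGG and GAGAG were found at 25 peaks (8.77%), and their joint presence was not counted over the other peaks. GCCAT was found at 19.6% of the peaks, 19.0% of the other peaks and 17.4% of the windows at usable non-coding TSSs. TATAAA was found at 4.91% of the peaks, 5.53% of the other peaks and in 13.1% of those windows. The windows are centred on the TSS and the peak stretches on summits, a median of 222 bp from it, so these shares cover different positions. The Zelda motif was found at 2.11%, the E box at 0.702% and the DNA replication-related element and the B box at 1 peak each (0.351%). Over the other peaks the shares were 1.87%, 1.37%, 0.370% and 0.280%, in the same order. In the windows at usable non-coding TSSs these 4 were found in 2.59%, 1.39%, 0.355% and 0.191%. The median GC content of these stretches was 53.5% in non-coding promoter peaks, coding promoter peaks and peaks away from any TSS alike. A match says only that these letters are present.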

How the data were processed

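Crol-eGFP ChIP-seq of 2 biological replicates of whole embryos was used as deposited peak lists on dm6, per the labels and file notes. Which aligner and peak caller were run is not given in the sources used here. Each peak has a signal, its height as the authors deposited it, and a score, which is a rescaled irreproducible discovery rate, per the file headers and notes, from 830 to 1000 in the conservative list. No scaling is stated, so signals of different kinds of peak were compared within a list. Each replicate's signal was taken from its own ranked list, at the overlapping peak (1 bp or more) with the nearest summit. Comparisons between replicates use these deposited values as they stand, without a common scale. The between-replicate ranked lists do not name their replicate columns and were not used, against the plan. Read counts were not used, so depth is unknown.

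Gene starts came from Ensembl release 115, arms and microRNA products from RefSeq, both of the same assembly as the peaks. Of the 481 mature microRNA entries, all lay inside a hairpin and were named by it. Shares carry exact Clopper-Pearson 95% intervals that cover counting error only, and a count of 0 allows 3 counts. No p-value was computed, since 1 group was measured. The work used Python 3.11.15, numpy 2.4.6, pandas 2.3.3, scipy 1.17.1 and matplotlib 3.10.9, with functions tested on simulated data.

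Members and gene lists were chosen with earlier results of these data known. Named were genes of the 30 strongest peaks, the 10 with most peaks, up to 8 per class other than lncRNA, list genes with a peak, the 5 weakest, the 5 at each end of replicate ratio and the 3 on each side of the limits. Of the listed names, 14 of 15 lncRNAs and 7 of 8 snoRNA hosts matched. The alternatives were other lists, windows, replicates and gene sets, 16 in all. Sequences of some strong peaks, among them the strongest, are not reported here.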

Additional observations from a re-analysis of the deposited data

How the results depend on the processing

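No paired analysis was possible because the study holds 1 group. With a 250 bp window 185 peaks remained of 285. The ratio of the median signal to that of coding promoters was below 1 in every alternative run: 0.920 with the optimal list, 0.966 with the highest score only, 0.930 with the 250 bp window, 0.934 with gene ends as starts, and 0.923 to 0.961 with either replicate's list alone. Over peaks away from any TSS it was 1.14 with the highest score only and 1.06 to 1.11 with one replicate. The share of non-coding genes with a peak was 6.35% with the highest score only, 4.63% and 12.6% with windows of 250 and 1000 bp, 9.67% with all non-coding genes, and 5.402% to 6.997% with one replicate. The share in both replicates was 70.9% with the highest score only, 53.3% where 50% of the peak had to be covered, and 70.2% to 86% with one replicate's list. GGGGG was found at 31.2% and 57.2% of peaks with 25 and 100 bp on each side of the summit, and GAGAG at 15.1% and 44.2%. The causes were not tested, but smaller windows and lists hold fewer sites by construction. Leaving out peaks that overlap a stronger one, and mature microRNA entries, was added after seeing the data and moved no value beyond its spread. Depth is unknown and limits weak peaks in a way that could not be measured.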
